A study of Homo sapiens with 6 samples.

Results

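UACC-812 and T47D are 2 of the 6 established human breast cancer cell lines sequenced in the series, and the only ones labelled ductal carcinoma. They were taken as a pair by that label and as lines that express the estrogen and progesterone receptors, and they were set against the 4 other lines, MDA-MB-415, SKBR3, MDA-MB-453 and CAL51. For each gene, the difference of mean log2(value + 1) was taken as the pair minus the 4 others, and a gene was recorded as beyond the other lines when both UACC-812 and T47D lay above, or both lay below, every one of them. Each line gave 1 mRNA library, read from one end. UACC-812 grew in Leibovitz's L-15 with 20% serum and 20 ng/ml EGF, and T47D grew in RPMI 1640 with 10% serum. Of the other lines, MDA-MB-415 (adenocarcinoma) was kept in Leibovitz's L-15 with 15% serum, 10 mcg/ml insulin and glutathione, and SKBR3 (adenocarcinoma) in RPMI 1640 with 20% serum. MDA-MB-453 (metastatic carcinoma) was kept in IMEM with 20% serum, and CAL51 (breast carcinoma) in RPMI 1640 with 10% serum. The labels give all 6 an epithelial morphology and name no drug or engineered allele. They name no hormone or growth factor beyond the insulin and EGF given above. Medium and line cannot be told apart.

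The estrogen receptor, encoded by ESR1, is a transcription factor that binds its hormone and then DNA, and in mammary luminal cells it works beside the pioneer factor FOXA1 and the transcription factor GATA3. PGR, which encodes the progesterone receptor, is itself a classic estrogen-induced gene, and its presence in a breast tumour is used in the clinic as a sign of a working estrogen receptor. Luminal cells also carry keratins 8 and 18 and sealed epithelial junctions, whereas mesenchymal cells express vimentin and fibrillar matrix genes.

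PGR stood far above the other lines in both UACC-812 and T47D. Its value was 108 in UACC-812 and 586 in T47D, against 0.639 in MDA-MB-453, a listed 0 in SKBR3, 1.63 in MDA-MB-415 and 0.0969 in CAL51. The lower of the pair was thus well clear of every other line, the groups did not overlap, and T47D held more than UACC-812. In such bulk libraries, fewer cells that express a gene and less RNA per cell cannot be told apart. The difference of means was 7.43 on the log2 scale (standard error 0.997, 2 against 4 lines). ESR1 separated the lines less cleanly. It was 166 in UACC-812 and 284 in T47D, against 0.026 in MDA-MB-453, 0.0522 in SKBR3, 83.02 in MDA-MB-415 and a listed 0 in CAL51. UACC-812 and T47D were again the 2 highest lines, but MDA-MB-415 held ESR1 at a level within 2-fold of UACC-812 on the log2(value + 1) scale, and only SKBR3, MDA-MB-453 and CAL51 were at or near 0. The pair was taken as lines that express both receptors, so these high values restate that choice and do not test it. For ESR1 alone, receptor expression does not set MDA-MB-415 apart from the pair.

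The promoters of PGR and of the 3 estrogen-induced genes with the widest gap between the pair and the other lines are shown because the receptor defines the pair and the 3 others separate it most widely within that list. Each window runs from 250 bases before to 50 bases after the gene's start in RefSeq (GRCh38.p14), read along the gene's own strand. PGR lies on the minus strand at chr11:101129028-101129327, OLFM1 on the plus strand at chr9:135075255-135075554, C6orf97 (now CCDC170) on the plus strand at chr6:151493767-151494066 and STC2 on the minus strand at chr5:173328365-173328664. Capitals mark an estrogen response half-site (GGTCA or its reverse complement TGACC) or a forkhead motif (TGTTTAC or its reverse complement).
PGR: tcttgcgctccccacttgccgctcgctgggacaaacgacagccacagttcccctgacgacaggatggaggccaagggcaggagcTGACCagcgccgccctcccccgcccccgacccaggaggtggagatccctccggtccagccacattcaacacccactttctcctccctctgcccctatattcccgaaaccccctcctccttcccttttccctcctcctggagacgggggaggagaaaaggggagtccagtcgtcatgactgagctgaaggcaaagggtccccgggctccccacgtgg
OLFM1: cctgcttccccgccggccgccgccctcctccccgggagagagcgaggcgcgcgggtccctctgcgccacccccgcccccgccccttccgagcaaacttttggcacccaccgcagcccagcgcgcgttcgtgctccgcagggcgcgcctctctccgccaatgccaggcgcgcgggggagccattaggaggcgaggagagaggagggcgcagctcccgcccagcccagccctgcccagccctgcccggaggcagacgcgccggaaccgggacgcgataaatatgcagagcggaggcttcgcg
C6orf97: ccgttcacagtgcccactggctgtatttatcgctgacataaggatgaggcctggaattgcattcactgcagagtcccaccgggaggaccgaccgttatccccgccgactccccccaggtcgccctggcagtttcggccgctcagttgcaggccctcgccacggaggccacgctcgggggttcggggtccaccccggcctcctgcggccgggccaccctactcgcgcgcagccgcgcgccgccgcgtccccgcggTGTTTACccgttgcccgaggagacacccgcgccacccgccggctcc
STC2: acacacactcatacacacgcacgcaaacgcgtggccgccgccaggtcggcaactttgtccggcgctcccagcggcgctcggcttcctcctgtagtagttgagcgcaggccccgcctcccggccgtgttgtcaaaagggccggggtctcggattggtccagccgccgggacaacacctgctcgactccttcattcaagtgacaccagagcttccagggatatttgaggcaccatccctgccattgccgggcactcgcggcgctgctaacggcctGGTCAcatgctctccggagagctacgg
PGR held a half-site that begins 166 bases before the start used. STC2 held a half-site that begins 23 bases after its start, and C6orf97 a forkhead motif that begins 4 bases after its own. OLFM1 held none of these letters. The start used for PGR lies only a few bases before an ATG in the printed window. Whether transcription of PGR begins further upstream was not tested. It is therefore not known whether its half-site lies in the promoter or within the transcript. Among 172 matched promoters of genes at least 2-fold above all 4 other lines, both strands searched, none held the full palindromic estrogen response element (GGTCA and TGACC with 3 bases between), against 0.0163% of 12306 promoters of all genes. None held the progesterone and glucocorticoid response element (GNACA and TGTNC with 3 bases between), against 0.195% of all promoters. These elements were rare, in 2 and 24 of the 12306 promoters, so their absence from 172 says little. The half-site GGTCA was present in 66 (38.4%), against 34.9% of all, the forkhead motif in 5 (2.91%), against 2.39%, and the GATA motif AGATAA in 7 (4.07%), against 5.92%. The half-site lies within the palindrome, and these windows cover only the bases close to each start.

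The steps between low values give a depth of 25600000 reads in UACC-812 and 29200000 in T47D, and of 30200000 to 36500000 in the 4 other lines. A value was read as RPKM (reads scaled to length and library size) summed over the exons of a gene, although no label states the unit. Levels are therefore compared between lines for 1 gene and never between genes. In a single exon of 1 kb, 3 reads were worth between 0.0822 (CAL51) and 0.117 (UACC-812), so values below about that size rest on a handful of reads. There were no replicate libraries, so every standard error below reflects the spread between different cell lines and no biological error within a line. Over all 16418 genes the median difference between the pair and the 4 others was 0.23 on the log2 scale, and it was -0.02 when libraries were scaled by the trimmed mean of M-values (TMM). Differences are best read against that offset. SKBR3 had a TMM factor of 0.658, and the other 5 lines had factors between 0.933 and 1.27.

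Both lines of the pair lay above all 4 others for 1674 genes (10.2% of those tested) and below all 4 for 496 (3.02%). Under TMM scaling the counts were 1174 above and 967 below, so the excess of genes on the high side depended largely on scaling, and 77.1% of such genes were high as deposited, against 54.8% after TMM. With a margin of at least 2-fold (1 log2 unit), 265 genes (1.61%) lay above and 47 (0.286%) below. After TMM scaling 192 lay above, 185 of them among the 265, and 71 lay below, 44 of them among the 47. Fewer lines to clear give more such genes: leaving out CAL51 gave 564 above by 2-fold and 92 below, leaving out MDA-MB-453 gave 440 and 108, and leaving out SKBR3 gave 334 and 107. The counts were 567 above and 142 below when MDA-MB-415 was left out, 1305 and 220 when T47D was left out, and 823 and 237 when UACC-812 was left out. Limma, fitted to all genes on log2(value + 1) with Benjamini-Hochberg adjustment, called no gene at an adjusted p of 0.05 (0.0%), and the smallest adjusted p was 0.26. Without T47D, which leaves 1 line on the side of the pair, limma called 76 genes. At an unadjusted p under 0.05, 633 genes (3.86%) were higher and 124 (0.755%) lower. An exact permutation of the 6 lines has 15 splits and cannot give a p below 0.0667. The genes named below are therefore described by their values and by the gap between groups, and none passed the test.

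The genes with the widest gap above the other lines came from many functions. CACNA1H, a T-type calcium channel subunit, had the widest of all, 953 in UACC-812 and 652 in T47D, against a listed 0 in MDA-MB-453, 2.39 in SKBR3, 4.33 in MDA-MB-415 and 2.86 in CAL51. Both lines of the pair were far above the others, none of which reached 5. OLFM1, which encodes the secreted protein olfactomedin 1, was 167 in UACC-812 and 406 in T47D, against 0.192 in MDA-MB-453, 0.285 in SKBR3, 1.83 in MDA-MB-415 and 2.27 in CAL51. C6orf97, the coiled-coil gene next to ESR1 on chromosome 6, was 77.3 in UACC-812 and 110.2 in T47D, against 0.768 in MDA-MB-453, 0.0548 in SKBR3, 0.051 in MDA-MB-415 and 0.0169 in CAL51. None of the 4 other lines reached a value of 1 for C6orf97, and MDA-MB-415, which did hold ESR1, was at 0.051.

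CBFA2T3, a transcriptional corepressor of the ETO family, was 59.7 in UACC-812 and 221 in T47D, against 0.406 in MDA-MB-453 as the highest of the others. SCUBE2, a secreted protein with EGF-like repeats that marks luminal tumours, was 2607 in UACC-812 and 618 in T47D, against 13.7 in CAL51 as the highest of the others. CPAMD8, of the complement and macroglobulin family, was 533 in UACC-812 and 459 in T47D, and the highest other line was MDA-MB-453 with 24.5. In all 3 genes the groups were far apart, and UACC-812 was the higher of the pair for SCUBE2 and T47D for CBFA2T3. STC2, the hormone stanniocalcin 2, was 1139.8 in UACC-812 and 2160.3 in T47D, against 24.7 in MDA-MB-453, 0.558 in SKBR3, 65.1 in MDA-MB-415 and 32.6 in CAL51. Every line but SKBR3 held STC2 above 20, and the pair stood apart by height rather than by presence. DSCAM, a neuronal cell adhesion molecule, was 19.95 in UACC-812 and 66.4 in T47D and was listed at 0 in the other lines except SKBR3 (0.216). ACER1, an alkaline ceramidase, was 14.6 in UACC-812 and 15.03 in T47D and listed at 0 in all 4 others, as was UGT3A2, a glycosyltransferase, at 10.7 in UACC-812 and 12.9 in T47D. Such genes were few: of the 265, 23 were listed at 0 in all 4 other lines and 64 were at or below 1 in all of them.

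**Figure D1:**
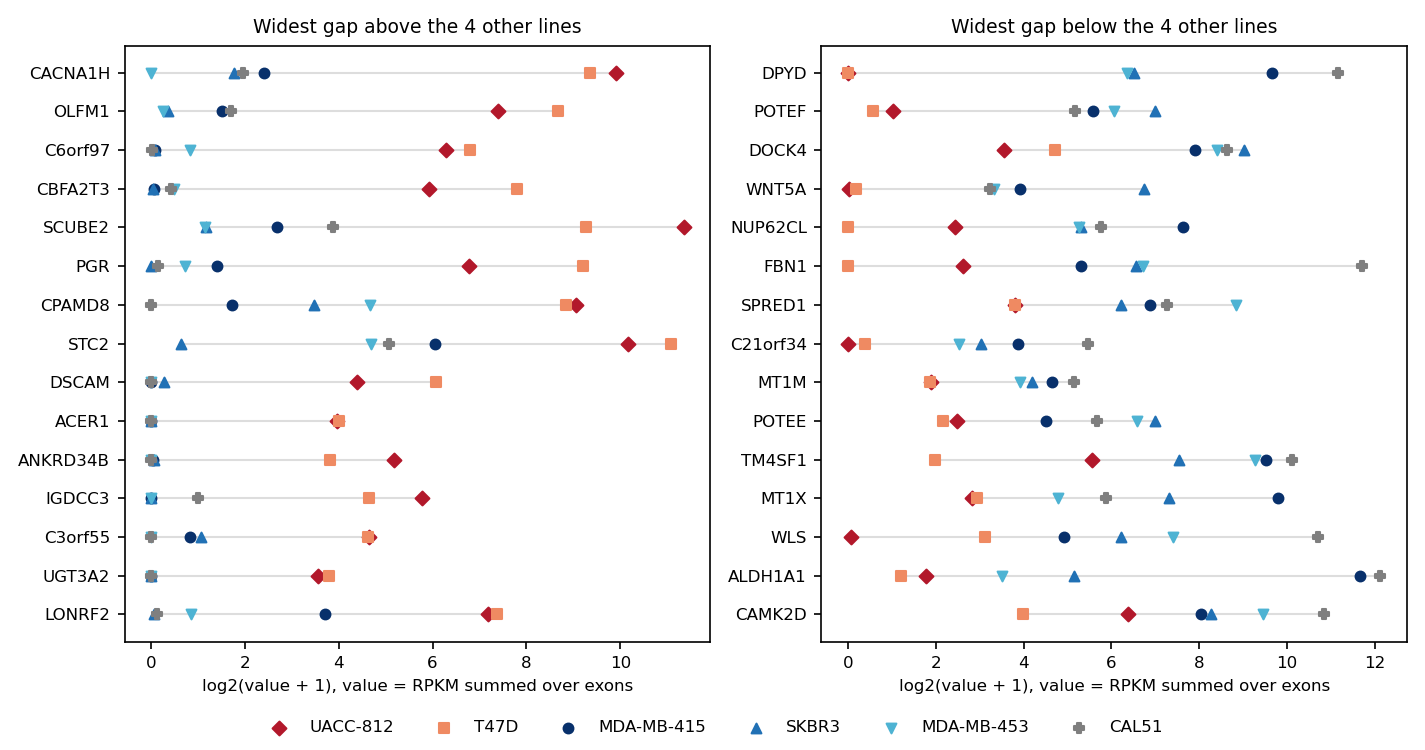
Values of each line for the 15 genes with the widest gap above (left) and the 15 with the widest gap below (right) the 4 other lines, on the log2(value + 1) scale; each point is 1 library of 1 line and the grey bar spans the 6 lines. UACC-812 and T47D sit to the right of all 4 other lines in the left panel and to the left of them in the right panel, which is how the genes were chosen; for DPYD both sit at 0.

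The remaining genes of that set were ANKRD34B, IGDCC3, C3orf55 and LONRF2, with gaps between 3.46 and 3.75 log2 units. At the 2-fold margin itself, the last gene inside was WDR81, at 52 in UACC-812 and 50.3 in T47D against 24.6 in MDA-MB-415 as the highest other line, and the first outside was SYT3, at 6.5 in UACC-812 and 0.992 in T47D and listed at 0 in the 4 others. MDA-MB-415 was counted as the highest of the 4 other lines for 101 of the 265 genes (38.1%), against 29% of all genes. Ties were counted for MDA-MB-415, including the 23 of the 265 genes listed at 0 in all 4. These shares therefore overstate how often it was the highest.

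Of 28 measured steroid and nuclear receptors, 6 lay above all 4 other lines (21.4%, against 10.2% of all genes). Below lay 1 (3.57%, against 3.02%), and 21 overlapped. PGR and ESR1 are among the 6, and their place there follows from the choice of the pair by receptor expression. The median difference of the receptors was 0.18, close to the 0.23 of all genes, and -0.09 after TMM scaling. RARA, the retinoic acid receptor alpha, was 3759.6 in UACC-812 and 674 in T47D, against 52.99 in MDA-MB-453, 263 in SKBR3, 199.6 in MDA-MB-415 and 105 in CAL51. It was highest in UACC-812, with T47D second, in contrast to PGR. The thyroid hormone receptor THRA, a neighbour of RARA on chromosome 17, was also above the others, though T47D (104) barely exceeded MDA-MB-415 (91.2). THRB, the beta form, was the receptor below all 4, at 25.6 in UACC-812 and 33.3 in T47D against at least 42.9.

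Among 24 luminal transcription factors, 3 lay above all 4 others and none below (12.5% above, close to the 10.2% of all genes). ELF5, an ETS factor of the mammary alveolar lineage, had the widest gap, 99.9 in UACC-812 and 358 in T47D, against 1.36 in MDA-MB-453, 10.1 in SKBR3, 0.0157 in MDA-MB-415 and 0.0777 in CAL51. Only SKBR3 among the others passed a value of 2. GATA3, the luminal zinc finger factor, was 1583 in UACC-812 and 1796 in T47D, against 1533 in MDA-MB-453, 68.7 in SKBR3, 198 in MDA-MB-415 and 8.28 in CAL51. T47D and UACC-812 were the 2 highest, but MDA-MB-453 was so close that the gap was only 0.05 log2 units. ZNF703, a luminal repressor, had a gap of 0.41. FOXA1, TFAP2C and XBP1 overlapped between groups: FOXA1 was 257 in UACC-812 and 191 in T47D, against 294 in MDA-MB-453, 106 in SKBR3, 141 in MDA-MB-415 and 16.5 in CAL51. High FOXA1 was thus shared with MDA-MB-453, and low FOXA1 was seen in CAL51.

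Receptor coregulators differed little. Of 28 measured, 2 lay above all 4 other lines (7.14%, against 10.2% of all genes) and none below (against 3.02%). The median difference was 0.04 as deposited and -0.24 after TMM scaling. FKBP4, a co-chaperone of steroid receptors, was 1442 in UACC-812 and 1862 in T47D, against values between 353 and 856 in the others, and MLL2, a histone methyltransferase, had a gap of only 0.08 log2 units.

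Genes known to be induced by estrogen in breast cancer cells were the listed group with the largest share above the other lines. This list, like the others, was chosen with earlier results of these data known, so its share is a description and not a test. Of 43 measured, 17 lay above all 4 others (39.5%, against 10.2% of all genes), none lay below and 26 overlapped. Their median difference was 1.70, against 0.23 for all genes, and 9 cleared the 2-fold margin (20.9%, against 1.61%). PGR is among the 17 and the 9, and its place there follows from the choice of the pair by receptor expression. After TMM scaling 16 lay above and 1 below, against 7.15% of all genes above and 5.89% below. PGR, OLFM1, C6orf97 and STC2, given above, had the widest gaps. RAPGEFL1, a guanine nucleotide exchange factor-like gene near RARA, was 2393 in UACC-812 and 519 in T47D, against 96.6 in SKBR3 as the highest of the others. PDZK1, a scaffold protein with PDZ domains, was 209.7 in UACC-812 and 81.1 in T47D, against 17.1 in MDA-MB-453 at most. NPY1R, a receptor of neuropeptide Y, was 24.7 in UACC-812 and 10.7 in T47D, against 2.72 in MDA-MB-453 at most, and all 3 were higher in UACC-812.

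GREB1, a cofactor of the estrogen receptor, was 355 in UACC-812 and 3185 in T47D, against 0.854 in MDA-MB-453, 2.56 in SKBR3, 227 in MDA-MB-415 and 2.4 in CAL51. It was high in the 3 lines with ESR1 and between 0.854 and 2.56 in those without, so the gap of 0.64 was set by MDA-MB-415. IGFBP4, a binding protein of insulin-like growth factors, was also high in those 3 lines, at 188 in UACC-812 and 208 in T47D against 2.9 in MDA-MB-453, 0.162 in SKBR3, 113 in MDA-MB-415 and 15.4 in CAL51. TFF1, a secreted trefoil peptide, was high in only 1 line of the pair, at 2737 in UACC-812 and 8.34 in T47D, against 5.14 in MDA-MB-453, 2.3 in SKBR3, 3.24 in MDA-MB-415 and 2.3 in CAL51. T47D was nearer to the 4 others than to UACC-812 for TFF1. Smaller gaps were seen for FHL2, ADCY9, SIAH2, CA12, CELSR2 and SLC9A3R1 (from 0.15 to 1.24 log2 units), and RARA also belongs to the list. MDA-MB-415 was the highest of the 4 other lines for 6 of the 17 genes, and when it was left out 22 of 43 genes lay above the 3 remaining lines (51.2%, against 16.3% of all genes). MYB and BCL2, both named as estrogen-induced, did not follow. MYB was 38.96 in UACC-812 and 156 in T47D, against 357 in MDA-MB-453, 204 in SKBR3, 79.7 in MDA-MB-415 and 40.2 in CAL51. BCL2, the founding inhibitor of apoptosis in its family, was 1.78 in UACC-812 and 0.019 in T47D, against 1.21 in MDA-MB-453, 0.8 in SKBR3, 0.893 in MDA-MB-415 and 16.2 in CAL51. For both genes another line was the highest, MDA-MB-453 for MYB and CAL51 for BCL2.

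**Figure D2:**
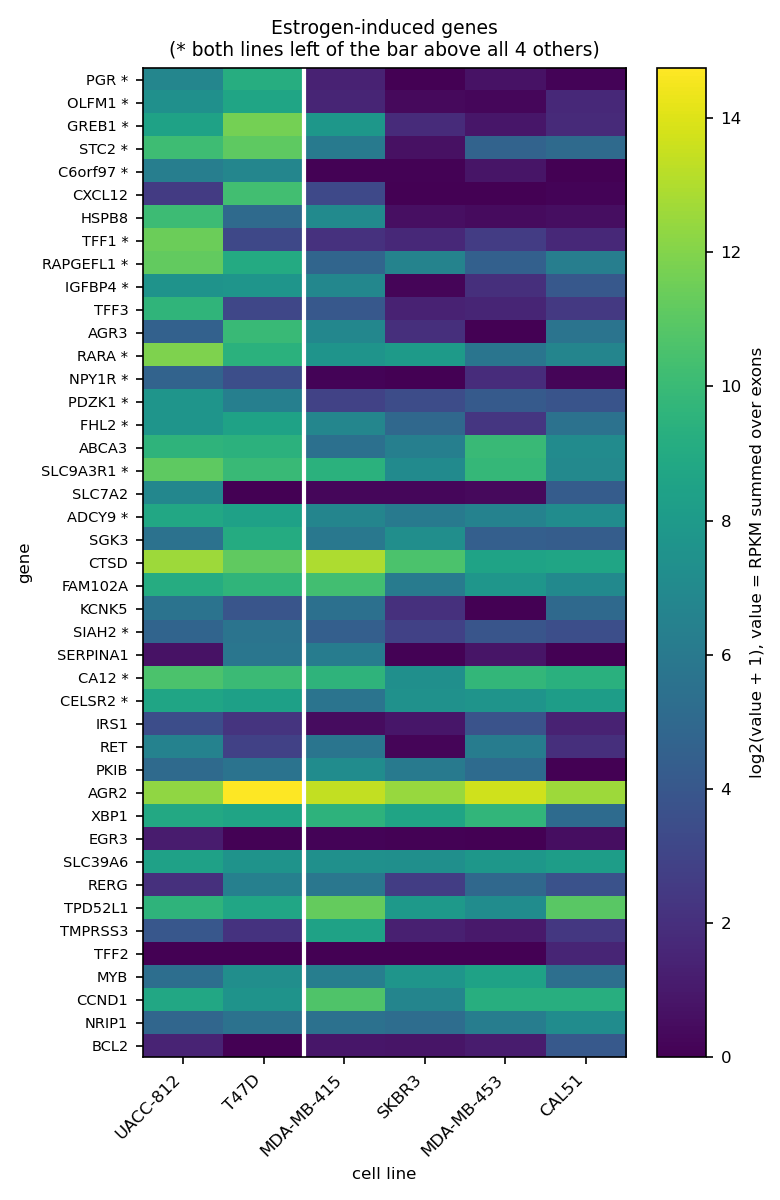
The 43 measured estrogen-induced genes (rows) in the 6 lines (columns), coloured by log2(value + 1), with UACC-812 and T47D left of the white bar and the genes ordered by the difference of means. An asterisk marks the 17 genes for which both lines lay above all 4 others; GREB1 and IGFBP4 are also high in MDA-MB-415, and TFF1 is high only in UACC-812.

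Progestin-induced genes showed no such pattern. Of 36 measured, 2 lay above all 4 other lines (5.56%, against 10.2% of all genes), 2 below (5.56%, against 3.02%) and 32 overlapped. The median difference was 0.01 as deposited and -0.22 after TMM scaling. ELF5, given above, and BCL2L1, an inhibitor of apoptosis, were above, with a gap of only 0.11 for BCL2L1. MT2A, a metallothionein, was below, at 12.3 in UACC-812 and 37.7 in T47D against 348 in MDA-MB-453, 406 in SKBR3, 478 in MDA-MB-415 and 67.6 in CAL51, and so was CDKN1C, a cell cycle inhibitor with low values throughout. The labels name no added progestin.

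Of 35 steroid metabolism genes, 2 lay above (5.71%, against 10.2% of all genes) and 2 below (5.71%, against 3.02%). HSD17B1, the enzyme that makes estradiol from estrone, was 4098 in UACC-812 and 89.2 in T47D, against 7.83 in MDA-MB-453, 7.1 in SKBR3, 14.9 in MDA-MB-415 and 32.5 in CAL51. UACC-812 exceeded T47D by 5.51 log2 units, yet T47D still lay above the other lines. SULT2B1, a sulfotransferase of hydroxysteroids and cholesterol, was 101 in UACC-812 and 56.95 in T47D, against 11.6 in MDA-MB-415 at most. CYP3A5, a steroid hydroxylase, was 1.45 in UACC-812 and 0.267 in T47D, against at least 5.03 in MDA-MB-453. SRD5A1, a steroid 5-alpha-reductase, was 12.5 in UACC-812 and 14.6 in T47D, against at least 17.9 in MDA-MB-453.

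The luminal keratins KRT8 and KRT18 were higher in both lines than in all 4 others. KRT8 was 55731 in UACC-812 and 35859 in T47D, against 3962 in MDA-MB-453, 11581 in SKBR3, 5596 in MDA-MB-415 and 13266 in CAL51. KRT18, its pairing partner in the intermediate filament, was 22564 in UACC-812 and 21485 in T47D, against values between 3039.9 and 8702 in the others. All 6 lines expressed both keratins, and the pair stood above the rest by more than 2-fold; reads of KRT8 and KRT18 can also match their many processed pseudogenes. Other simple keratins were less uniform: KRT19 had a gap of only 0.26 log2 units, and KRT7 was 11739.7 in UACC-812 and 866 in T47D, against 2009 in MDA-MB-453, 2745 in SKBR3, 7599 in MDA-MB-415 and 33.9 in CAL51. Of 39 luminal and differentiation markers, 11 lay above all 4 others (28.2%, against 10.2% of all genes), 1 below and 27 overlapped, with a median difference of 1.54; TMM scaling left 8 above (20.5%, against 7.15% of all genes) and 1 below. SCUBE2, given above, had the widest gap. FBP1, a gluconeogenic enzyme, was 1319 in UACC-812 and 237 in T47D, against 149.6 in SKBR3 at most. MAPT, the microtubule-associated protein tau, was 96.1 in UACC-812 and 119.7 in T47D, against 16.5 in MDA-MB-453, 0.00677 in SKBR3, 54.6 in MDA-MB-415 and 4.24 in CAL51. EPCAM, the epithelial cell adhesion molecule, was the marker below all 4, at 1683 in UACC-812 and 1329 in T47D against 2572 in MDA-MB-453, 2010.0 in SKBR3, 1864 in MDA-MB-415 and 3156 in CAL51. It was expressed in every line and its gap was only 0.15 log2 units.

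Epithelial junction genes leaned the same way, with 11 of 35 above all 4 others (31.4%, against 10.2% of all genes), none below and a median difference of 0.98, against 0.23 for all genes. TMM scaling left 7 above (20.0%, against 7.15%). CDH1, which encodes E-cadherin of the adherens junction, was 2794 in UACC-812 and 3978 in T47D, against 205 in MDA-MB-453, 0.823 in SKBR3, 1774 in MDA-MB-415 and 107 in CAL51. MDA-MB-415 was the nearest line and SKBR3 stood far below all others. CLDN1, a tight junction claudin, was 116 in UACC-812 and 163 in T47D, against 0.108 in MDA-MB-453, 1.45 in SKBR3, 37.9 in MDA-MB-415 and 45.8 in CAL51. CLDN3, another claudin, was 84.6 in UACC-812 and 45.01 in T47D, against 22.8 in MDA-MB-415 at most. PPL, the desmosomal plakin periplakin, was 1012 in UACC-812 and 537 in T47D, against 392 in MDA-MB-415 at most, and MDA-MB-415 was again the nearest. Among 30 basal markers 1 lay above all 4 others (3.33%, against 10.2% of all genes) and none below. It was ITGB4, the beta-4 integrin of hemidesmosomes. ITGB4 was 978 in UACC-812 and 1057 in T47D, against 177 in MDA-MB-453, 153 in SKBR3, 416 in MDA-MB-415 and 49.2 in CAL51. When MDA-MB-415 was left out, 9 of the 30 basal markers lay above the 3 remaining lines (30.0%, against 16.3% of all genes).

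Receptors and ligands of the insulin, FGF and RET pathways, with their binding proteins, held 6 of 32 measured members above the others (18.8%, against 10.2% of all genes) and 1 below (3.12%, against 3.02%). ARTN, a ligand of the RET receptor complex, was 33.9 in UACC-812 and 20.4 in T47D, against 0.823 in MDA-MB-453, a listed 0 in SKBR3, 1.7 in MDA-MB-415 and 0.35 in CAL51. Every other line was below 2. IGFBP2, which binds insulin-like growth factors, was 110.0 in UACC-812 and 25 in T47D, against 18.4 in MDA-MB-453 at most. FRS2, the docking protein of FGF receptors, was 190.0 in UACC-812 and 164 in T47D, against values between 65.1 and 76.9 in the others. SPRY1, an inhibitor of receptor tyrosine kinase signalling, was below, at 5.87 in UACC-812 and 3.91 in T47D against 40.8 in MDA-MB-453, 15.9 in SKBR3, 6.89 in MDA-MB-415 and 187 in CAL51. ERBB receptors and the neighbours of ERBB2 on chromosome 17 held none of 26 members beyond the other lines, although their median difference was 1.01, which became -0.20 without UACC-812 and 1.76 without T47D. ERBB2 itself was 49826 in UACC-812 and 2745 in T47D, against 6356 in MDA-MB-453, 25464 in SKBR3, 1122 in MDA-MB-415 and 1621 in CAL51. UACC-812 and SKBR3 were the 2 highest lines, and T47D lay among the rest. EGFR, the receptor of the EGF added to UACC-812 cultures, was 66.8 in UACC-812 and 70.9 in T47D, against 16.2 in MDA-MB-453, 388 in SKBR3, 5.65 in MDA-MB-415 and 415 in CAL51, so the pair lay between SKBR3 and CAL51 on the high side and MDA-MB-415 and MDA-MB-453 on the low side.

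Prolactin and STAT5 genes held 2 of 23 members above (8.70%, against 10.2% of all genes) and none below. CISH, a feedback inhibitor of STAT5 signalling, was 17.1 in UACC-812 and 13.3 in T47D, against 9.4 in MDA-MB-453 at most, and ELF5 was the second. PRLR, the prolactin receptor, differed widely within the pair, at 232 in UACC-812 and 12847 in T47D, against 610.2 in MDA-MB-453, 478 in SKBR3, 352 in MDA-MB-415 and 7.1 in CAL51. T47D was the highest of the 6 lines and UACC-812 was lower than every other line but CAL51. STAT5A overlapped between groups, at 35.02 in UACC-812 and 74.5 in T47D against 4.82 in MDA-MB-453, 24.5 in SKBR3, 192 in MDA-MB-415 and 76.4 in CAL51.

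The genes below all 4 other lines included DPYD, the rate-limiting enzyme of pyrimidine breakdown, which also clears fluorouracil. DPYD was listed at 0 in both UACC-812 and T47D, against 80.2 in MDA-MB-453, 90.1 in SKBR3, 809 in MDA-MB-415 and 2298 in CAL51. Every other line held at least 80.2, and CAL51 and MDA-MB-415 were the highest. POTEF and POTEE, 2 ankyrin-domain genes of a near-identical family, also lay below, but their reads can be split among copies and their values are uncertain. DOCK4, an exchange factor for Rac and Rap GTPases, was 10.7 in UACC-812 and 25.1 in T47D, against 338 in MDA-MB-453, 519.8 in SKBR3, 238 in MDA-MB-415 and 395 in CAL51. WNT5A, a ligand of non-canonical WNT signalling, was 0.00807 in UACC-812 and 0.124 in T47D, against 9.03 in MDA-MB-453, 106 in SKBR3, 14.1 in MDA-MB-415 and 8.35 in CAL51. WLS, the carrier that WNT ligands need for secretion, was 0.0399 in UACC-812 and 7.7 in T47D, against 168 in MDA-MB-453, 73.05 in SKBR3, 29.2 in MDA-MB-415 and 1664 in CAL51. Both WNT genes were nearly silent in UACC-812, and T47D kept a low WLS value.

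TM4SF1, a tetraspanin-like membrane protein, was 45.97 in UACC-812 and 2.95 in T47D, against 620.5 in MDA-MB-453, 184 in SKBR3, 732 in MDA-MB-415 and 1108 in CAL51. SPRED1, an inhibitor of RAS signalling, was 12.97 in UACC-812 and 12.9 in T47D, against 459 in MDA-MB-453, 73.5 in SKBR3, 116 in MDA-MB-415 and 153 in CAL51. The lines of the pair were nearly equal for SPRED1, and the lowest other line, SKBR3, was several-fold higher. ALDH1A1, a retinaldehyde dehydrogenase, was 2.44 in UACC-812 and 1.32 in T47D, against 10.3 in MDA-MB-453, 34.6 in SKBR3, 3228 in MDA-MB-415 and 4470.1 in CAL51, so that its gap was set by MDA-MB-453 while MDA-MB-415 and CAL51 were far higher. CAMK2D, a calcium and calmodulin dependent kinase, was 81.8 in UACC-812 and 14.9 in T47D, against at least 261 in MDA-MB-415. NUP62CL and C21orf34 (now MIR99AHG) completed the set with gaps of 2.83 and 2.15 log2 units. At the 2-fold margin, PAPLN was the last gene inside, at 1.48 in UACC-812 and 16.6 in T47D against at least 34.1 in SKBR3, and RHOU the first outside, at 0.704 in UACC-812 and 0.0405 in T47D against at least 2.34 in MDA-MB-415.

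Of 25 mesenchymal markers, 3 lay below all 4 others (12%, against 3.02% of all genes), none above and 22 overlapped, and the median difference was -1.0. TMM scaling put 4 below (16%, against 5.89% of all genes). FBN1, the microfibril protein fibrillin 1, was 5.18 in UACC-812 and a listed 0 in T47D, against 104 in MDA-MB-453, 92.9 in SKBR3, 38.8 in MDA-MB-415 and 3358 in CAL51. TGFBR2, the type II receptor of TGF-beta, was 0.241 in UACC-812 and 3.27 in T47D, against 12.4 in MDA-MB-453, 62.9 in SKBR3, 9.91 in MDA-MB-415 and 139.5 in CAL51. SNAI1, a repressor of E-cadherin, had a gap of only 0.02 log2 units, because MDA-MB-453 (1.89) was almost as low as T47D (1.85). CAL51 was the highest line for FBN1 and TGFBR2. VIM, the mesenchymal intermediate filament vimentin, was 22.98 in UACC-812 and 28.6 in T47D, against 20.9 in MDA-MB-453, 10.7 in SKBR3, 26.6 in MDA-MB-415 and 2810.2 in CAL51, and ZEB1, another repressor of E-cadherin, was 4.47 in UACC-812 and 0.177 in T47D, against 0.307 in MDA-MB-453, a listed 0 in SKBR3, 4.22 in MDA-MB-415 and 91.9 in CAL51. For both VIM and ZEB1 the pair overlapped with the others, and CAL51 alone was high.

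Other listed groups held few or no members above the other lines. Proliferation genes held none of 34 members beyond the other lines, yet 30 of 34 differences were negative, with a median of -0.78. Without MDA-MB-415, 17 of the 34 lay below the 3 remaining lines (50%, against 8.01% of all genes). Summed over the 34, MDA-MB-415 was the lowest line (6545), below UACC-812 (18590) and T47D (22095). CAL51 (61966), SKBR3 (39221) and MDA-MB-453 (38154.5) had larger sums than the pair. CAL51 was the highest of the 4 other lines for 27 of the 34 and MDA-MB-415 for 0. Low values in this list were therefore not particular to the pair. CDC45, a replication fork helicase subunit, was 176 in UACC-812 and 308 in T47D, against 2017 in MDA-MB-453, 688 in SKBR3, 193 in MDA-MB-415 and 1167 in CAL51, so MDA-MB-415 lay between the lines of the pair. Interferon response genes held 4 of 47 below (8.51%, against 3.02% of all genes) and none above. After TMM scaling 5 lay below (10.6%, against 5.89%). When MDA-MB-415 was left out, 4 lay below the 3 remaining lines (8.51%, close to the 8.01% of all genes). The median difference as deposited was -0.89. That median was 0.30 without MDA-MB-415, which was the highest of the other lines for 44 of the 47. OAS1, an antiviral RNA sensor, was 0.311 in UACC-812 and 0.506 in T47D, against 0.967 in MDA-MB-453, 1.12 in SKBR3, 217 in MDA-MB-415 and 1.72 in CAL51, and when MDA-MB-415 was left out 10 of the 47 lay above the 3 remaining lines (21.3%, against 16.3% of all genes). Of 28 G1 cyclins and cell cycle inhibitors, 1 lay above (3.57%, against 10.2% of all genes), MDM2, the ligase of p53, with a gap of 0.03. Below lay 3 (10.7%, against 3.02%), and 3 after TMM scaling (10.7%, against 5.89%). E2F3, an S-phase transcription factor, was among those below as deposited. It was 27.9 in UACC-812 and 19.3 in T47D, against 50.9 in MDA-MB-453, 49.96 in SKBR3, 52.5 in MDA-MB-415 and 57.3 in CAL51. CDKN1B, which encodes p27, was 78.6 in UACC-812 and 48.3 in T47D, against at least 101 in MDA-MB-415. WNT and NOTCH genes held 2 of 46 above (4.35%) and 2 below (4.35%), and HOX genes 2 of 35 above (5.71%) and none below. BCL2 family genes held 2 of 19 above (10.5%) and 1 below (5.26%). Over all genes the shares were 10.2% above and 3.02% below. JAG1, a NOTCH ligand, was below, at 9.29 in UACC-812 and 19.1 in T47D against 357 in MDA-MB-453, 25.7 in SKBR3, 453 in MDA-MB-415 and 6058 in CAL51. BOK, a pro-apoptotic BCL2 relative, was above, at 107 in UACC-812 and 85.3 in T47D against 50.9 in MDA-MB-453, 16.5 in SKBR3, 1 in MDA-MB-415 and 21.6 in CAL51.

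**Figure D3:**
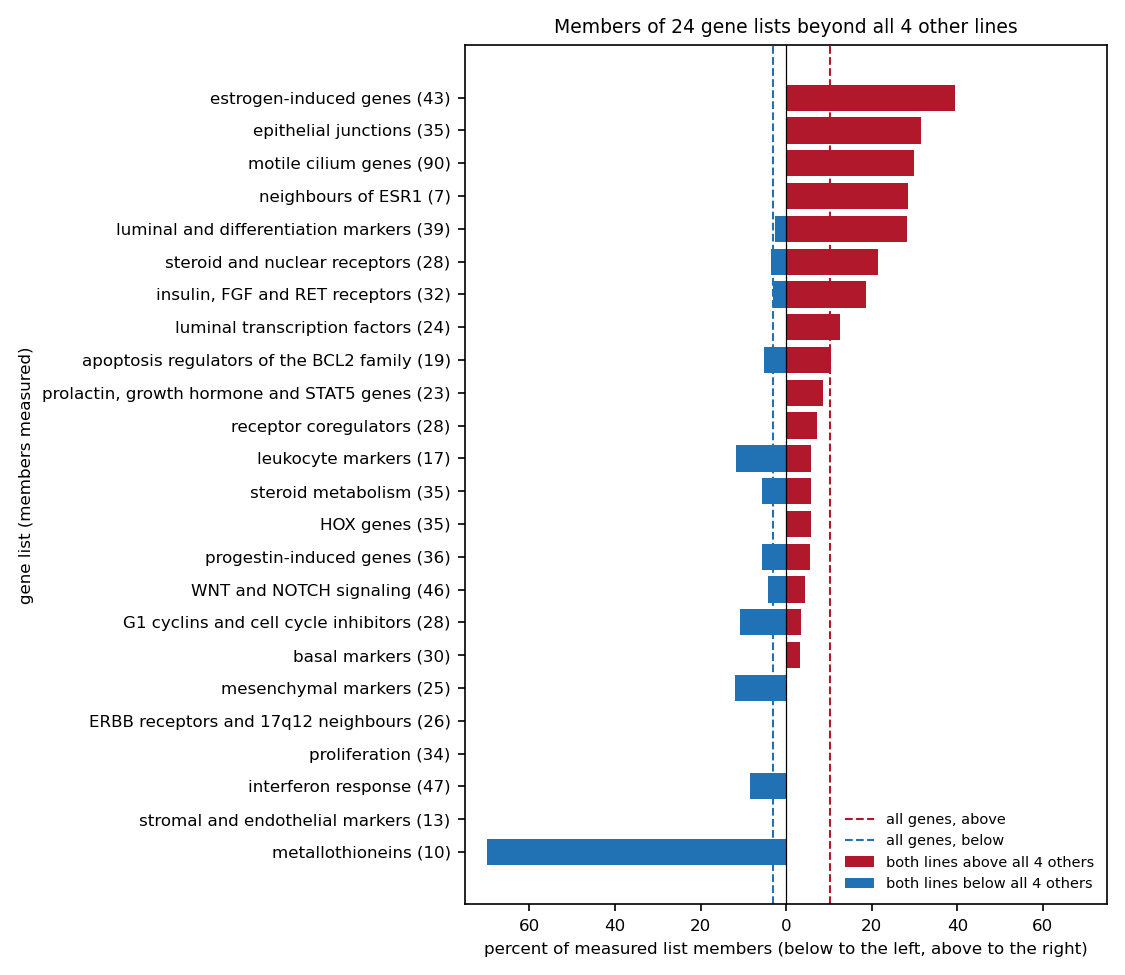
Percent of the measured members of each of 24 gene lists for which both UACC-812 and T47D lay above (right) or below (left) all 4 other lines, by any margin; the number of measured members is in parentheses and the dashed lines mark the same shares over all 16418 genes (10.2% above, 3.02% below). Estrogen-induced genes, which include PGR, have the largest share above (39.5%) and metallothioneins, a list written after their values were seen, the largest share below (7 of 10). The lists of motile cilium genes and neighbours of ESR1 were also written after values were seen. All lists were chosen with earlier results of these data known.

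Groups of genes met among the most separated ones were listed after their values had been seen, so their shares are a description of a choice already made. Motile cilium genes were the first. Of 110 listed, 90 were measured, and 27 of these lay above all 4 other lines (30.0%, against 10.2% of all genes) and none below. At the 2-fold margin 15 lay above (16.7%, against 1.61%), and the median difference was 0.85. TMM scaling left 23 above (25.6%, against 7.15%). C3orf15 (now CFAP91), a radial spoke protein, was 46.6 in UACC-812 and 24.5 in T47D, against a listed 0 in MDA-MB-453, 0.486 in SKBR3, 1.82 in MDA-MB-415 and a listed 0 in CAL51. HYDIN, of the central pair apparatus, was 10.8 in UACC-812 and 12.4 in T47D, against 0.729 in MDA-MB-453, 0.928 in SKBR3, a listed 0 in MDA-MB-415 and 1.43 in CAL51. MORN3 was 20.03 in UACC-812 and 6.64 in T47D, against 0.457 in MDA-MB-453, a listed 0 in SKBR3, 0.257 in MDA-MB-415 and a listed 0 in CAL51. All 3 were near 0 in several other lines and present in both lines of the pair, though HYDIN reads can also match its copy HYDIN2. DNALI1, an axonemal dynein chain that is also a luminal tumour marker, was 39.8 in UACC-812 and 72.03 in T47D, against 0.0643 in MDA-MB-453, 0.0324 in SKBR3, 18.95 in MDA-MB-415 and 4.35 in CAL51, and MDA-MB-415 was the nearest line.

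Metallothioneins, small metal-binding proteins encoded side by side on chromosome 16, lay low in the pair. Of 10 measured, 7 lay below all 4 others (70%, against 3.02% of all genes) and none above. At the 2-fold margin 5 lay below (50%, against 0.286%), and the median difference was -2.87. After TMM scaling 7 lay below by any margin (70%, against 5.89%). MT1X was 6.1 in UACC-812 and 6.65 in T47D, against 26.7 in MDA-MB-453, 159 in SKBR3, 884 in MDA-MB-415 and 57.8 in CAL51. MT1M was 2.68 in UACC-812 and 2.65 in T47D, against 14.2 in MDA-MB-453, 17.3 in SKBR3, 24.1 in MDA-MB-415 and 34.5 in CAL51. MT1E was 2.9 in UACC-812 and a listed 0 in T47D, against 10.5 in MDA-MB-453, 12.2 in SKBR3, 69.96 in MDA-MB-415 and 127 in CAL51. The pair was low for all 3, but the family is near-identical in sequence and reads could be split among members, so single values are uncertain. Of 7 measured neighbours of ESR1, C6orf97 and RMND1 lay above the others (28.6%, against 10.2% of all genes), and RMND1 by only 0.03 log2 units.

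**Figure D4:**
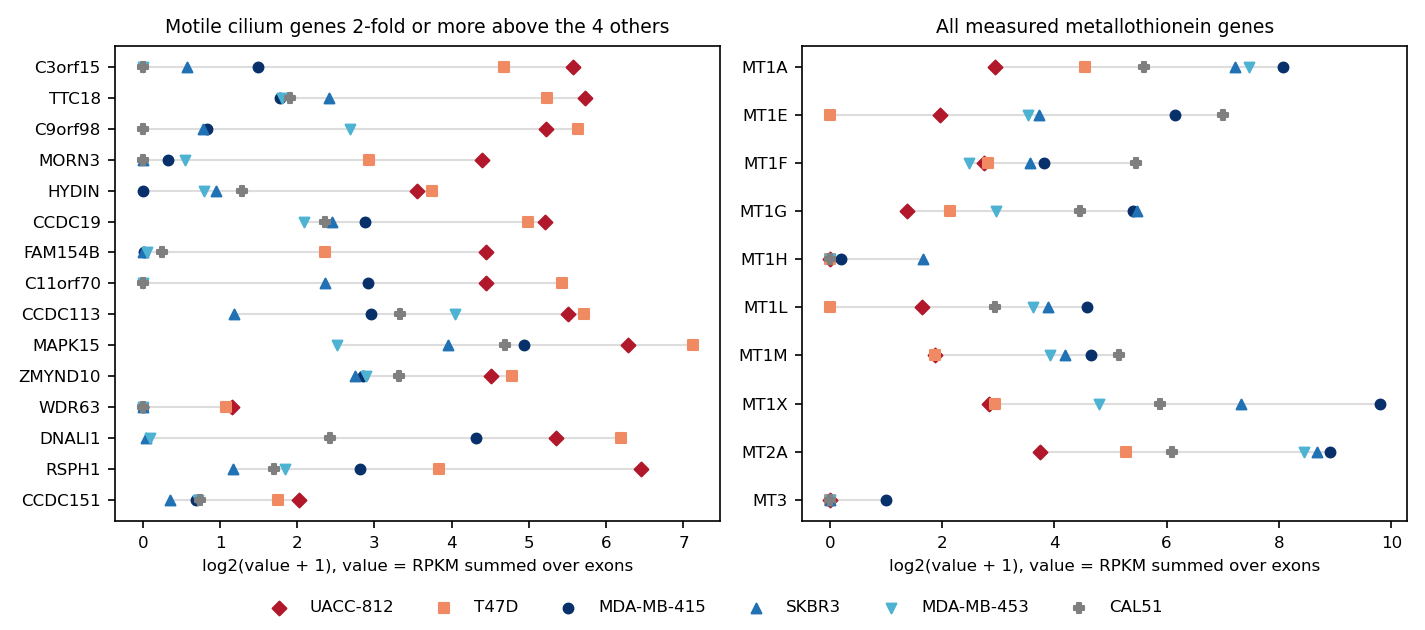
Values of each line for the 15 motile cilium genes at least 2-fold above the 4 other lines (left) and for all 10 measured metallothioneins (right), on the log2(value + 1) scale; each point is 1 library and the grey bar spans the 6 lines. UACC-812 and T47D lie right of the other lines in the left panel, by choice of the genes, and left of them for 7 metallothioneins; MT1F, MT1H and MT3 overlap.

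UACC-812 and T47D were not always alike among the separated genes. Of the 265 genes above, 174 (65.7%) were within 2-fold between UACC-812 and T47D, against 63.1% of all genes, and of the 47 below, 31 (66%) were. Among the 265, UACC-812 exceeded T47D by more than 4-fold for 22 genes and T47D exceeded UACC-812 for 10. HSD17B1, given above, differed in favour of UACC-812. KNDC1, a guanine nucleotide exchange factor, did too, at 92.1 in UACC-812 and 5.57 in T47D, against 0.506 in MDA-MB-415 and 0 listed in the 3 others. ODZ3 (a teneurin), ATP10A and PTGER3 differed in favour of T47D. ODZ3 was 16.03 in UACC-812 and 1890.3 in T47D, against a listed 0 in MDA-MB-453, 0.337 in SKBR3, 0.0342 in MDA-MB-415 and 3.87 in CAL51. ATP10A, a phospholipid flippase, was 16.5 in UACC-812 and 252 in T47D, against 3.98 in MDA-MB-415 and 0 listed in the 3 others. PTGER3, a receptor of prostaglandin E2, was 9.6 in UACC-812 and 126 in T47D, against 4.26 in MDA-MB-415 at most. All these genes lay above the 4 others in both lines, but with unequal height. Among the lower genes, TM4SF1 and FBN1 were higher in UACC-812, and WLS, PAPLN and IQGAP2 were higher in T47D. IQGAP2, a scaffold of the IQGAP family, was 0.0837 in UACC-812 and 7.26 in T47D, against 591 in MDA-MB-453, 17.3 in SKBR3, 70.5 in MDA-MB-415 and 2108 in CAL51.

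**Figure D5:**
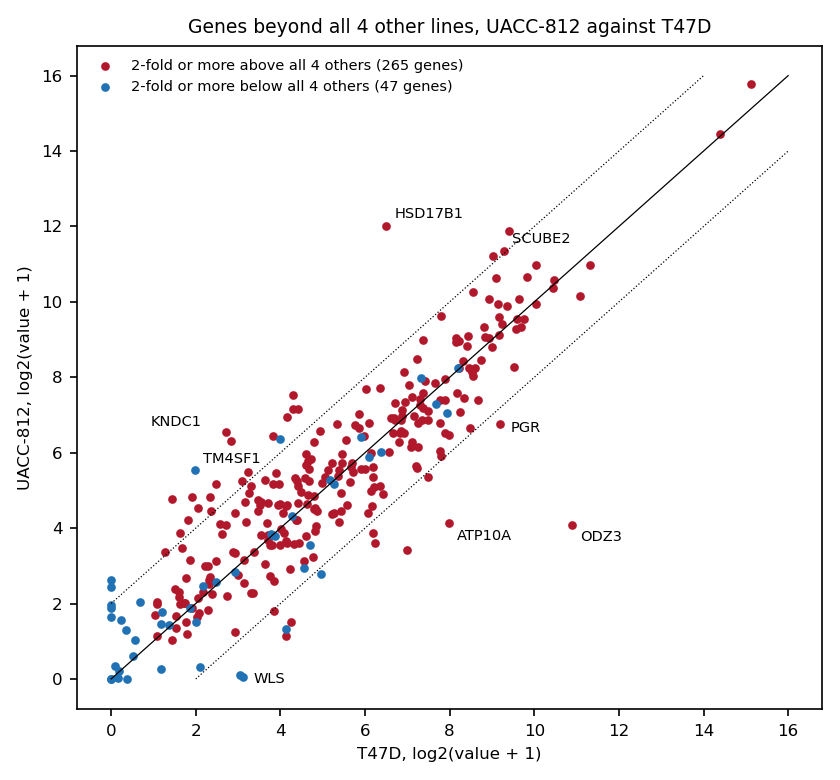
UACC-812 (vertical axis) against T47D (horizontal axis), both as log2(value + 1), for the 265 genes at least 2-fold above and the 47 at least 2-fold below all 4 other lines; each point is 1 gene, the solid line marks equal values and the dotted lines a 4-fold difference. Most genes lie between the dotted lines; HSD17B1 and KNDC1 lie on the UACC-812 side, and ODZ3 and ATP10A on the T47D side.

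Markers of cell types that a culture of one line should lack were low or mixed. PTPRC, the pan-leukocyte marker CD45, was listed at 0 in both UACC-812 and T47D, against 2.43 in MDA-MB-453, 2.76 in SKBR3, 0.489 in MDA-MB-415 and 18.8 in CAL51, and CD3E and MS4A1 were listed at 0 in both. Of the 17 measured leukocyte markers, 1 lay above all 4 others (5.88%, against 10.2% of all genes) and 2 below (11.8%, against 3.02%). CD3G was above, at 2.35 in UACC-812 and 1.91 in T47D, against 1.51 in MDA-MB-453 at most. The 17 measured leukocyte markers held 9 and 6 members above a value of 1 in UACC-812 and T47D, against 8 to 14 in the others, with summed values of 1622 and 695 against 636 to 4339. A few members made up most of each sum. CORO1A, which encodes an actin-binding protein, was the highest member in SKBR3 and was 405 in UACC-812 and 11.3 in T47D, against 15.5 in MDA-MB-453, 649.8 in SKBR3, 114 in MDA-MB-415 and 129 in CAL51. The 13 stromal and endothelial markers held 6 and 5 members above 1 in UACC-812 and T47D, against 5 to 11 in the others, with summed values of 437 and 525 against 229 to 1985. DCN and COL3A1, defining fibroblast genes, were listed at 0 in both lines of the pair. COL1A1 of the same list went the other way and was highest in T47D. It was 14.8 in UACC-812 and 213 in T47D, against 171 in MDA-MB-453, 9.38 in SKBR3, 168 in MDA-MB-415 and 90.7 in CAL51. COL1A2 was a listed 0 in UACC-812 and 1.52 in T47D. The part of these markers in the differences above was not tested.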

How the data were processed

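Total RNA of 6 lines was made into mRNA libraries and sequenced single-end, per the labels. CASAVA 1.8, RSEM and the build hg19 appear, without roles, in the submitters' processing notes; aligner, annotation and filters are not given in the sources used here. The authors deposited 1 value per gene and line, read here as RPKM summed over exons: no label states the unit, but in single-exon genes low values were whole multiples of 1 constant per library divided by gene length, within 0.01 reads, for 68.4% to 75.4% of such genes, against 1.20% to 1.84% for other constants. That constant gives the depth, from 25600000 to 36500000 reads, which covers counting error only. Single-exon genes cannot show the summing over exons, so that part of the reading is an inference. Under that reading the number of exons affects levels. Whole reads per gene were not recovered, so no count model was used.

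Of 16444 entries, 22 with names turned into dates and 4 with repeated names were left out, leaving 16418; 15968 names matched a reference symbol. A further 27 genes shared their values with another gene. No per-sample columns beyond the 6 were present. Groups follow the disease label. Values were compared on log2(value + 1), which understates changes of low genes, with limma 3.58.1 (trend, two-sided, Benjamini-Hochberg over all genes) in R 4.3.3, and with Python 3.11.15, pandas 2.3.3 and numpy 2.4.6. On simulated data the mean estimates recovered the differences put in, but limma called few or none of the changed genes when differences were at most 4 log2 units, and most of the large ones only where larger differences were added; an absence of calls therefore does not show that the lines did not differ. The replicates within a group are different lines, so p-values measure spread between lines. The alternatives were other pseudocounts, filters, scalings, variance models and leaving out each line. TMM was computed as an unweighted trimmed mean, a departure from the planned implementation, because the values are not counts.

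The pair and the lists were chosen with earlier results of these data known. Named genes (110) are the 15 with the widest gap in each direction among genes that reach 5, up to 4 separated members of each list with the largest difference of means (otherwise up to 2 members), a set of 19 fixed genes, and the 5 separated genes in each direction that differ most within the pair. Further members of those lists are named where their values show how a list behaves, chosen after their values were seen, and a few genes the rule names are not reported here. The lists of metallothioneins, motile cilium genes and ESR1 neighbours, the half-site motif and the choice of OLFM1, C6orf97 and STC2 promoters were also added after values were seen; the plan was to print PGR and promoters with a full element, and none of the 172 promoters searched held one. Promoter sequences come from RefSeq (GRCh38.p14) and were matched by name; the files' build differs, and no coordinates were taken from the files.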

Additional observations from a re-analysis of the deposited data

Results flagged for a closer look

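Among the 4 other lines, a single line stood far from the other 3 for 14 of the 110 named genes, with a gap to its nearest neighbour above Dixon's critical share of the range on the log2(value + 1) scale. For normally distributed values, about 1 in 20 groups of this size shows such a gap by chance. That rate does not hold for DSCAM, IGDCC3, ATP10A and KNDC1, where every line but the flagged one was listed at 0. There the gap spans the whole range whatever the flagged value, however low. MDA-MB-415 was the high line for ESR1 (83.02), GREB1 (227), TGFA (9.33), OAS1 (217), ATP10A (3.98) and KNDC1 (0.506). CAL51 was the high line for VIM (2810.2), BCL2 (16.2) and IGDCC3 (0.994) and the low line for MT2A (67.6) and PRLR (7.1). MDA-MB-453 was the high line for C6orf97 (0.768) and the low line for SNAI1 (1.89). SKBR3 was the high line for DSCAM (0.216). For ESR1 and GREB1, MDA-MB-415 set the width of the gap between the pair and the other lines.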

How the results depend on the processing

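Limma called 0 genes in every setting run except without T47D, where it called 76 (smallest adjusted p 0.0409); the smallest adjusted p was 0.0547 without UACC-812 and 0.106 or more in the other settings, and in these fits the lone line is assumed to vary like the others. At least 2-fold above all 4 others, 265 genes became 169 with a pseudocount of 5 and 127 among genes with a mean log2 value above 3, and ranged from 334 to 1305 when 1 line was left out (over 1.5 times for each line but SKBR3). At least 2-fold below, 47 became 26 with a pseudocount of 5 and 71 under TMM, and ranged from 92 to 237 when 1 line was left out (over 1.5 times for every line). By any margin, 1674 genes above ranged from 1904 to 4178 when 1 line was left out (over 1.5 times for UACC-812, T47D, MDA-MB-415 and CAL51), and 496 below became 967 under TMM and 954 under median-of-ratios scaling and ranged from 720 to 1623 when 1 line was left out (over 1.5 times for every line but CAL51). Leaving out a line can only keep or raise these counts, by construction. The share of genes on the high side among all separated by any margin was 77.1% as deposited, 54.8% under TMM, 56.0% under median-of-ratios and 67.0% under upper-quartile scaling. The median of the ERBB list was -0.20 without UACC-812 and 1.76 without T47D, against 1.01 with both; the cause was not tested. Signs of list medians differed from the values reported in 45 of 312 alternatives, over 13 of 24 lists, and signs of gene differences in 16 of 1395, over 8 of 110 genes, among them EGFR, ERBB2, MYB, STAT5A, VIM, XBP1 and ZEB1, whose groups overlapped. No paired analysis was possible because each line is its own culture and the replicate numbers only name samples. With 2 lines against 4 and 1 library each, every p rests on the spread between lines, and values of low genes rest on few reads.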

Other observations

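The separated genes were unevenly spread over chromosomes, as the shares by any margin show. On chromosome 17, 16.4% of genes lay above all 4 other lines and 0.734% below, and on chromosome 21 the shares were 16.6% and 1.23%, against 10.2% and 3.02% over all genes. On chromosome 2, 4.09% lay above and 7.30% below, and on chromosome 13, 5.62% above and 5.99% below. Under TMM scaling, with 7.15% above and 5.89% below over all genes, chromosome 17 had 12.1% above and 1.47% below, chromosome 21 had 12.9% and 2.45%, chromosome 2 had 2.82% and 13.0%, and chromosome 13 had 4.12% and 14.2%. These chromosomes were picked after the shares were seen, neighbouring genes are not independent, and the part of DNA copy number was not tested.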
